A study of Mus musculus with 2 samples.

Results

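The 7 genes described here carry glucose and lactate across the cell surface and commit glucose to metabolism inside the cell: the glucose transporters Slc2a1, Slc2a3 and Slc2a4, the lactate transporters Slc16a1 and Slc16a3, and the hexokinases Hk1 and Hk2. They were chosen by symbol, and 7 of 7 were found among the 32285 genes of the count tables. Their transcripts were counted in cells sorted for eYFP from mouse embryos at E13.5 and sequenced cell by cell from the 5′ end (10x Genomics), where each captured molecule adds 1 unique molecular identifier (UMI). The control library came from Isl1-Cre;R26R-eYFP embryos and the mutant library from Isl1-Cre;R26R-eYFP;Pik3caH1047R embryos, so that Cre from the Isl1 locus and the eYFP reporter were shared by both genotypes, and the activated PI3K subunit, carried in the mutant as a Cre-dependent Rosa26 transgene, was made only where Isl1-Cre had acted. Each library pooled 3 embryos, from which the tissue above the liver was taken (its label names the pharyngeal arch). With 1 library per genotype there was no replicate and no test between genotypes, and every interval below covers counting error only, at 95%. The cell filter asked for over 2000 but below 9000 detected genes and under 10% mitochondrial UMIs, and left 2783 control cells with 63153191 UMIs and 3489 mutant cells with 69717583 UMIs.

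Glucose enters most cells by facilitated diffusion through GLUT proteins, of which GLUT1 (Slc2a1) is found in most embryonic tissues and in brain endothelium, GLUT3 (Slc2a3) has a high affinity and is best known in neurons, and GLUT4 (Slc2a4) is the insulin-responsive carrier of muscle and fat. Hexokinases then phosphorylate glucose and so keep it in the cell; Hk1 is the widely expressed form and Hk2 the inducible form typical of muscle and of many proliferating cells. Lactate leaves or enters with a proton through MCT1 (Slc16a1), which works in both directions, and MCT4 (Slc16a3), a carrier typical of lactate-exporting cells.

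In build GRCm38, Slc2a1 lies on chromosome 4 from 119108711 to 119137983, Slc2a3 on chromosome 6 from 122727809 to 122801640 and Slc2a4 on chromosome 11 from 69942539 to 69948188. Slc16a1 lies on chromosome 3 from 104638668 to 104658462 and Slc16a3 on chromosome 11 from 120948480 to 120960868. Hk1 lies on chromosome 10 from 62268855 to 62379908 and Hk2 on chromosome 6 from 82725025 to 82774454. All 7 are protein-coding genes of the GENCODE annotation. Slc2a1, Slc2a3 and Slc16a1 overlap other annotated genes on their own strand, so that some of their reads could have been assigned elsewhere or discarded. Hk1 and Hk2 overlap genes on the opposite strand.

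The 250 bases before the RefSeq start sites are shown for 3 members whose level was higher in the mutant library in most cell classes, and for Slc16a1 as a member whose level differed little. Capitals mark ACGTG or GCGTG on either strand, the core letters of the hypoxia response element that hypoxia-inducible factors read. Where both strands of ACGTG overlap, as in Slc16a1 at base -200, the letters form the E-box CACGTG.
Slc2a1 (chr4:119108495-119108744, plus strand, GRCm38.p6): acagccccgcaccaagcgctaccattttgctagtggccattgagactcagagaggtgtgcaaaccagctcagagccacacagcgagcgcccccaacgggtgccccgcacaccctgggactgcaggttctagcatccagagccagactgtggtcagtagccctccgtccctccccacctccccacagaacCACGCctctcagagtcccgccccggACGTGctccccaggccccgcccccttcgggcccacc
Slc16a3 (chr11:120948817-120949066, plus strand, GRCm38.p6): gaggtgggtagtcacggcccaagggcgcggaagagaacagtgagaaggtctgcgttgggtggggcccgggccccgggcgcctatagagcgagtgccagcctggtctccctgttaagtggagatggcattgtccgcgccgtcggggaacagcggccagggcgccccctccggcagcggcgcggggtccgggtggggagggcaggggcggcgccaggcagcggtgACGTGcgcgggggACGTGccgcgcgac
Hk2 (chr6:82774455-82774704, minus strand, GRCm38.p6): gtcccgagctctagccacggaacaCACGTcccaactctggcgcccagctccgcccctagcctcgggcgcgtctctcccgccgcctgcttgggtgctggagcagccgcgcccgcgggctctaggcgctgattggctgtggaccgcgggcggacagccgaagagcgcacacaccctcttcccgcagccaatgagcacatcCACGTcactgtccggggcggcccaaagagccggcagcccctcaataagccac
Slc16a1 (chr3:104638414-104638663, plus strand, GRCm38.p6): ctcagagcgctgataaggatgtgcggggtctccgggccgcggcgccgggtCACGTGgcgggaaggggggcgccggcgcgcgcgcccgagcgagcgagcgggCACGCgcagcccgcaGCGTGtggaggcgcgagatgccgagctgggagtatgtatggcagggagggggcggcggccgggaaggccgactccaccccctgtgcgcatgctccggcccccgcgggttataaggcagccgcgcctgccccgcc
RefSeq and GENCODE starts differ, and the Slc16a3 window lies inside the GENCODE gene. Slc2a1 held ACGTG at base -36 and GCGTG at base -61, Slc16a3 held ACGTG at bases -27 and -14, and Hk2 held it at bases -226 and -52. Slc16a1 held 4 matches in its window. Hk1 has 2 start sites in the table, of which 1 window held 3 matches of GCGTG and the other 0. Over all 32851 RefSeq promoter windows of the same length, 38.6% held at least 1 of these motifs, 16.6% ACGTG and 28.2% GCGTG, so that a match by itself sets no member apart. Slc2a3 and Slc2a4 were matched to no entry.

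Cells were grouped by clustering without the 7 genes, and clusters were named from marker genes. In all, 7 classes held at least 50 cells in each library. Endothelial-like cells, called ECs below, numbered 147 in control and 694 in mutant, with all 12 EC markers raised, Plvap, Cdh5 and Emcn among the leading genes. Branchial muscle-like cells numbered 887 and 839, mesenchyme-like cells 953 and 657, epithelium-like cells 212 and 304, neuron-like cells 193 and 470, cardiomyocyte-like cells 54 and 184, and mesothelium-like cells 70 and 67. UMIs of a gene were summed over the cells of a class and given per 1000000 UMIs of that class (CPM, here never the cardiopharyngeal mesoderm); because 5′ tags are 1 per molecule, levels were not divided by transcript length. In ECs the deposited counts of Pik3ca were 46.6 CPM in control and 45.2 CPM in mutant, and they give no separate value for the transgene. The libraries also differed in sex: 2659 control cells were female-like by Xist and 4 Y-linked genes against 1 male-like, whereas the mutant library held 1173 female-like and 1861 male-like cells. Hepatoblast markers, genes of another cell type, summed to between 0.771 and 4.87 CPM over these classes in control and between 21.2 and 45.4 CPM in mutant, and 47 hepatoblast-like cells were found in the mutant library and 0 in control; their part in the results below was not tested.

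Slc2a1 was higher in the mutant library in all 7 classes and was the most abundant member in 4 of 7 control classes and 5 of 7 mutant classes. In control, ECs held the highest level, 154 CPM (499 UMIs, interval 141 to 168), ahead of mesothelium-like cells at 120 CPM and epithelium-like cells at 116 CPM, whose intervals overlapped. Mesenchyme-like, cardiomyocyte-like and branchial muscle-like cells followed at 54.3, 46.2 and 41.2 CPM, again with overlapping intervals between neighbours, and neuron-like cells were lowest at 26.3 CPM. In the mutant library the order changed at the top: epithelium-like cells at 734 CPM (712 to 757) and ECs at 723 CPM (10003 UMIs, 709 to 737) had overlapping intervals, and neuron-like cells were again lowest at 87.4 CPM. On the log2 scale, mutant over control gave 2.23 for ECs (2.10 to 2.36) and 2.66 for epithelium-like cells (2.53 to 2.80). The smallest ratio was 1.41 in cardiomyocyte-like cells (0.94 to 1.92).

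Slc2a3 showed the largest ratio of any member. In ECs control cells held 7 UMIs, in 6 of 147 cells (2.16 CPM, 0.868 to 4.45), and mutant cells 2232 UMIs, in 290 of 694 cells (161 CPM, 155 to 168), a log2 ratio of 6.22 (5.18 to 7.54). The control value depended on which cells were counted. When cells were assigned by marker counts, 1 barcode with 105 Slc2a3 UMIs, which lay in the unnamed blood cell cluster, joined the 7 UMIs of the control ECs, and the ratio was 2.09. Admitting cells with at least 1000 genes added 1 barcode with 79 UMIs and gave 2.64. Summed epithelium markers in ECs, as a measure of RNA of the class with most Slc2a3, were 14.8 CPM in control and 37.2 CPM in mutant, and their part in the EC value was not tested. Of the other classes, epithelium-like cells had the highest level in both libraries, 36.0 CPM in control and 491 CPM in mutant, a ratio of 3.77 (3.53 to 4.02). Their control interval, 30.5 to 42.3 CPM, overlapped that of neuron-like cells. Mesothelium-like cells had 14.7 and 155 CPM, mesenchyme-like cells 8.75 and 82.0 CPM and branchial muscle-like cells 9.33 and 69.6 CPM, with ratios of 3.40, 3.23 and 2.90. Neuron-like cells, the class for which GLUT3 is best known, had similar summed levels: 27.3 CPM in control (22.4 to 33.0) and 29.1 CPM in mutant (25.4 to 33.1), a ratio of 0.09 (-0.25 to 0.43). That value sums over clusters that took different shares of each library, and within 3 of the 4 neuron-like clusters at a finer resolution Slc2a3 was higher in mutant, as given below. Cardiomyocyte-like cells had 3 UMIs in control and 49 in mutant, a ratio of 2.12 (0.49 to 4.45).

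Slc2a4 was low throughout and was not higher in the mutant library in any class with an interval above 0. The highest level was in smooth muscle or mural-like cells, a group too small for the comparison of classes, with 27 UMIs over 39 cells (35.7 CPM) for control and 9 UMIs over 27 cells (17.7 CPM) for mutant, a ratio of -1.01 (-2.29 to 0.12). Cardiomyocyte-like and mesenchyme-like cells both had 10.4 CPM in control, with 9 UMIs behind the first value. In mutant they had 4.92 and 9.23 CPM. In ECs there was 1 UMI in control and there were 5 in mutant. After thinning every cell to 5000 UMIs, 0.694% of control and 0.151% of mutant ECs held a Slc2a4 UMI. Median depths before thinning were 20203 and 17038 UMIs per cell. Because Slc2a4 was low in every class, these shares give no background level for the more abundant members. Over all filtered cells, where the classes take different shares of each library, Slc2a4 was lower in mutant by a log2 ratio of -0.58 (-0.79 to -0.36).

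**Figure D1:**
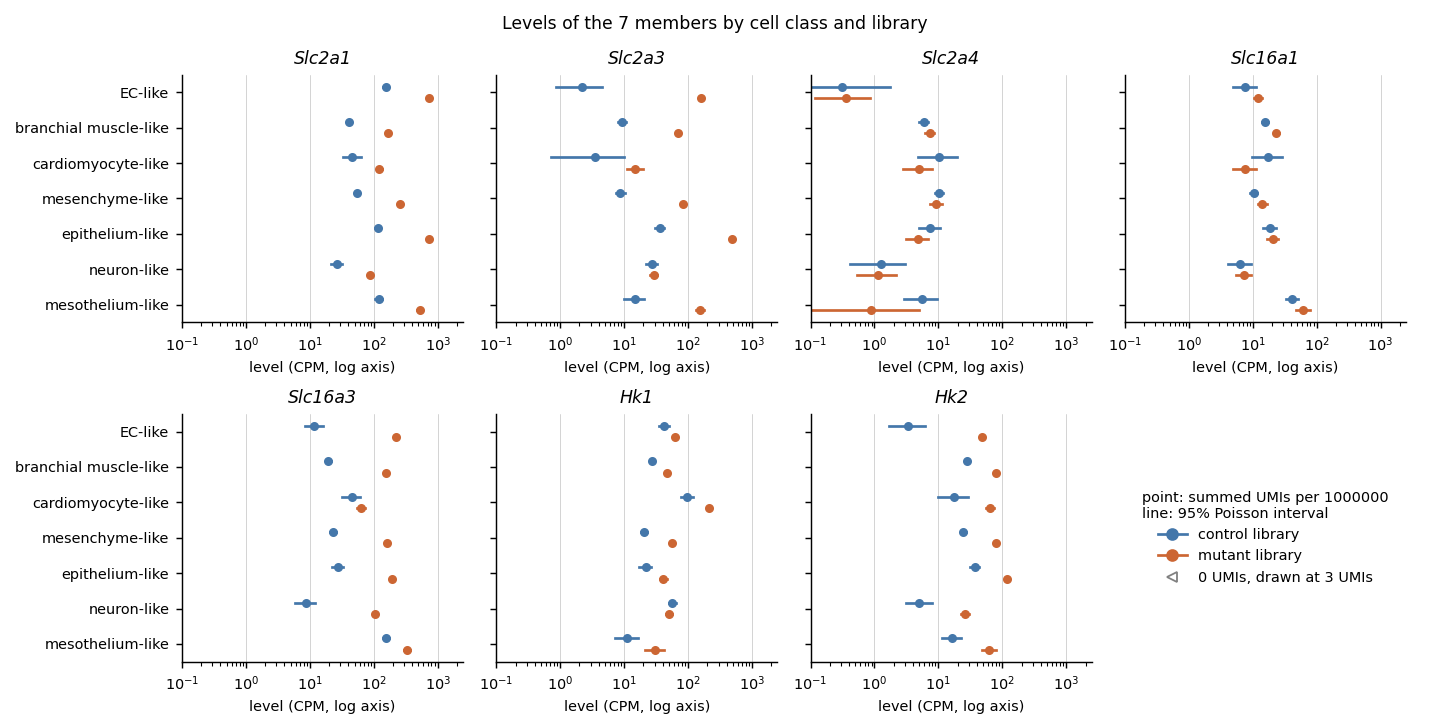
Level of each member (CPM, log axis) in 7 cell classes, with the control library in blue and the mutant library in orange; points are summed UMIs per 1000000 and lines are 95% Poisson intervals. The mutant points of Slc2a1 and Slc16a3 lie right of the control points in all 7 classes. The intervals of Slc2a3 overlap in neuron-like cells, and those of Slc2a4 overlap in all 7 classes.

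The lactate carriers differed from each other. Of Slc16a3, which codes for MCT4, control ECs held 38 UMIs (11.7 CPM, 8.29 to 16.1) and mutant ECs 3041 (220 CPM, 212 to 228), a log2 ratio of 4.23 (3.77 to 4.73). In neuron-like cells it was 8.59 and 103 CPM, a ratio of 3.58 (3.09 to 4.12), and in branchial muscle-like cells 19.5 and 158 CPM, a ratio of 3.02 (2.87 to 3.16). Mesenchyme-like and epithelium-like cells had ratios of 2.80 and 2.83. Mesothelium-like cells already had 154 CPM in control, by far the highest, and reached 334 CPM in mutant, a ratio of 1.12 (0.90 to 1.33). Cardiomyocyte-like cells, next in control at 45.0 CPM (32.0 to 61.6), were lowest in mutant at 64.0 CPM (55.6 to 73.3), and their ratio of 0.51 had an interval reaching down to 0.01.

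Slc16a1, which codes for MCT1, differed less between the libraries. Control ECs held 25 UMIs (7.71 CPM, 4.99 to 11.4) and mutant ECs 169 (12.2 CPM, 10.4 to 14.2), a log2 ratio of 0.66 (0.05 to 1.33). Branchial muscle-like cells had 15.8 and 23.4 CPM, a ratio of 0.57 (0.37 to 0.77). Mesothelium-like cells were highest in both libraries, 41.9 CPM in control and 61.4 CPM in mutant. In cardiomyocyte-like cells the direction was opposite, with 15 UMIs (17.3 CPM) for control and 25 UMIs (7.69 CPM) for mutant, a ratio of -1.17 (-2.15 to -0.14). For epithelium-like and neuron-like cells the intervals of the ratio held 0.

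Hk1 and Hk2 divided the classes differently. Hk1 was highest in cardiomyocyte-like cells, 97.0 CPM in control and 211 CPM in mutant, a log2 ratio of 1.12 (0.79 to 1.47), and next in control neuron-like cells, 56.9 CPM, where the mutant level was 50.4 CPM and the ratio -0.17 (-0.41 to 0.07). ECs had 41.9 CPM (136 UMIs) and 62.5 CPM (865 UMIs), a ratio of 0.58 (0.31 to 0.85). Mesenchyme-like cells had the larger ratio of 1.45, from 20.6 to 56.6 CPM, which sums over clusters of different proportions in each library, as given below. Hk2, the inducible form, was lowest in control ECs, 3.39 CPM (11 UMIs, 1.69 to 6.07), with an interval that overlapped that of control neuron-like cells at 5.06 CPM (3.09 to 7.81). In mutant ECs it was 47.6 CPM (659 UMIs, 44.1 to 51.4), a ratio of 3.81 (2.96 to 4.82), and in mutant neuron-like cells 26.1 CPM, a ratio of 2.37. Epithelium-like cells were highest in both libraries, 36.8 and 119 CPM. Ratios in the other 5 classes lay between 1.52 in branchial muscle-like and 1.95 in mesothelium-like cells.

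Counted against a 2-fold difference among genes with at least 20 UMIs in a class, 4 of 6 members were higher in mutant ECs (Slc2a1, Slc2a3, Slc16a3 and Hk2), where 9.06% of all 14166 genes were higher and 6.15% lower; Slc2a4 had too few UMIs. The median log2 ratio of these 6 was 3.02, against -0.07 over all genes. In branchial muscle-like cells the same 4 of 7 were higher, against 9.55% of all genes, in mesenchyme-like cells 5 of 7 (these 4 and Hk1) against 7.20%, and in epithelium-like cells 4 of 7 against 5.33%. In neuron-like cells 3 of 6 were higher (Slc2a1, Slc16a3 and Hk2), against 3.97%. In mesothelium-like cells 5 of 6 were higher, against 10.8%, the exception being Slc16a1, and Slc2a4 had too few UMIs. In cardiomyocyte-like cells 4 of 7 were higher (Slc2a1, Slc2a3, Hk1 and Hk2), against 5.78%, and 2 were lower (Slc2a4 and Slc16a1), against 9.51%. The interval of the Slc2a4 ratio in that class, -1.08, ran from -2.34 to 0.28.

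**Figure D2:**
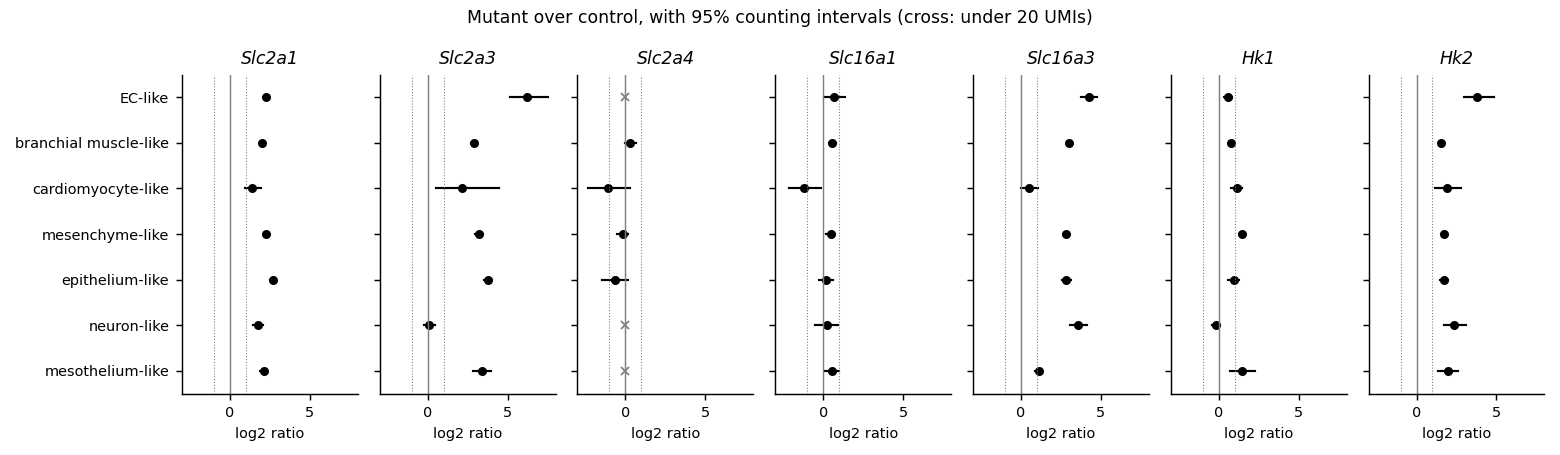
Log2 ratio of mutant over control for each member in 7 cell classes, with 95% counting intervals as lines, 0 as a solid and 2-fold as dotted vertical lines, and a cross where a class held under 20 UMIs. Slc2a3, Slc16a3 and Hk2 reach their largest ratios in ECs (6.22, 4.23 and 3.81), and Slc16a1 lies below 0 in cardiomyocyte-like cells (-1.17).

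Isoform choice, taken as the share of a family's UMIs held by 1 member, does not depend on how the libraries are scaled. In control ECs, Slc2a1 held 98.4% of the glucose transporter UMIs and Slc2a3 1.38% (0.557 to 2.82%, 7 of 507 UMIs). In mutant ECs Slc2a1 held 81.7% and Slc2a3 18.2% (17.6 to 18.9%, of 12240 UMIs). The control share rests on few UMIs and was lost as a difference through 1 added barcode: with classes from marker counts the shares were 19.0% in control and 18.0% in mutant, and with at least 1000 genes 14.1% and 18.2%. Slc2a3 also took a larger share in mutant branchial muscle-like cells (16.6% in control and 28.5% in mutant), mesenchyme-like cells (11.9 and 23.2%), epithelium-like cells (22.6 and 39.9%) and mesothelium-like cells (10.5 and 23.0%), all without overlap of the intervals. The epithelium-like shares sum over clusters present in different proportions in each library. In the Krt6a cluster described below, the log2 ratio was 1.37 for Slc2a3 and 2.71 for Slc2a1, so its Slc2a3 share was lower in mutant. In the Sftpc and Oc90 clusters the share was higher, with ratios of 4.43 and 5.13 for Slc2a3 against 2.44 and 2.30 for Slc2a1. Over neuron-like cells the share was lower in mutant: Slc2a3 held 49.8% of their glucose transporter UMIs in control (42.9 to 56.6%) and 24.7% in mutant (21.9 to 27.6%). These are shares over all neuron-like cells, whose clusters were present in different proportions in each library. The share of Slc2a4 was 14.1% in control and 2.61% in mutant mesenchyme-like cells, and 17.3% and 3.45% in cardiomyocyte-like cells; in both classes the summed level of the family was higher in mutant.

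For lactate transporters, Slc16a3 held between 55.3% (branchial muscle-like) and 78.6% (mesothelium-like) of the UMIs in the 7 control classes, and between 84.5% (mesothelium-like) and 94.7% (ECs) in the mutant classes. In ECs its share was 60.3% in control (47.2 to 72.4%, of 63 UMIs) and 94.7% in mutant (93.9 to 95.5%, of 3210 UMIs). For mesothelium-like cells the intervals of both shares overlapped, 74.4 to 82.4% and 80.8 to 87.7%. The hexokinase shares separated the classes already in control. Hk2 held 7.48% of hexokinase UMIs in ECs (3.79 to 13%), 8.16% in neuron-like cells and 15.2% in cardiomyocyte-like cells. Its share was larger, from 50.4% in branchial muscle-like to 62.9% in epithelium-like cells, in the other 4 classes, with 54.5% for mesenchyme-like and 59.3% for mesothelium-like cells. In mutant ECs the Hk2 share was 43.2% (40.7 to 45.8%) and in mutant neuron-like cells 34.1% (30.3 to 38.1%). In mesenchyme-like cells it was 58.7%, with an interval of 56.1 to 61.2% that overlapped the control interval, and cardiomyocyte-like and mesothelium-like cells also had overlapping intervals.

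**Figure D3:**
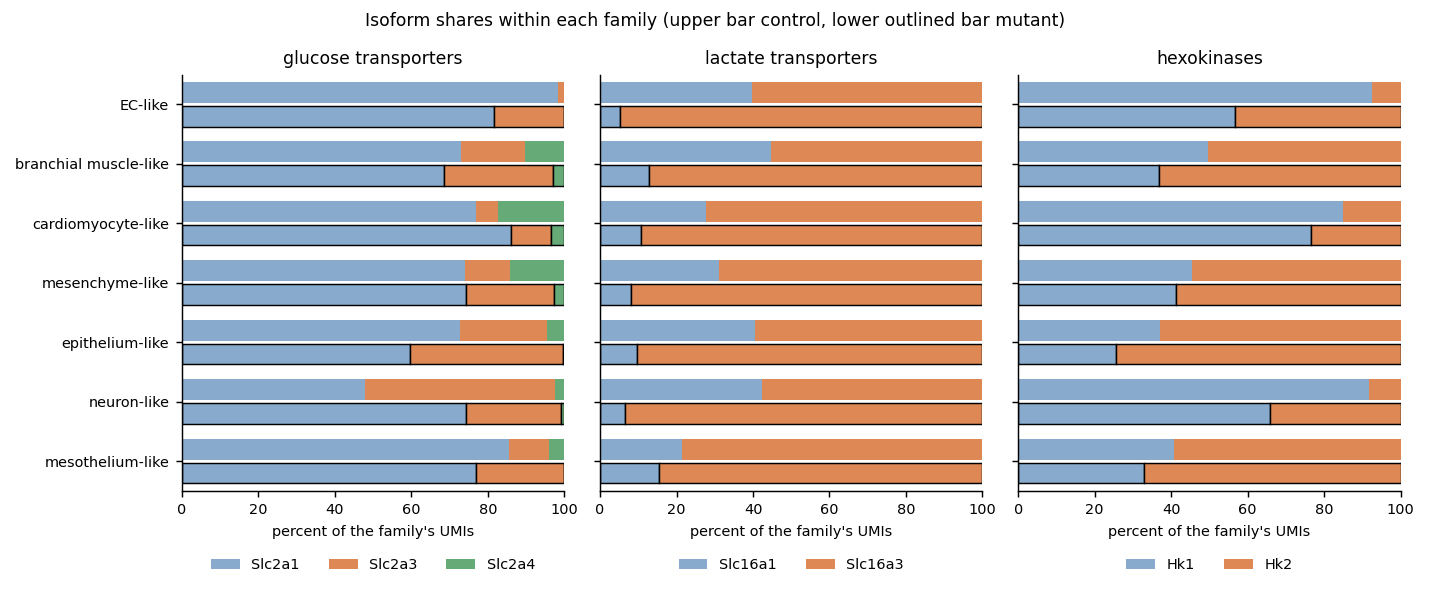
Percent of the UMIs of each family held by each member in 7 cell classes, with the control library as the upper bar and the mutant library as the lower, outlined bar of each pair. The Slc2a3 share is 1.38% in control and 18.2% in mutant ECs (19.0% and 18.0% with classes from marker counts, where 1 barcode was added), 49.8% and 24.7% in neuron-like cells, and Slc16a3 holds 84.5 to 94.7% of lactate transporter UMIs in the mutant classes.

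The differences also appeared as shares of cells. After thinning to 5000 UMIs per cell, which left out 234 shallower cells of all classes, 38.9% of 144 control ECs and 75.4% of 662 mutant ECs held a Slc2a1 UMI. For Slc16a3 the shares were 4.86% and 49.8%, for Hk1 16% and 25.1%, and for Hk2 0.694% and 17.8%. For Slc2a3 they were 1.39% and 28.7%. Cardiomyocyte-like cells, with the lowest mutant share of the 7 compared classes, gave 0 of 54 control cells and 2.81% in mutant. The exact upper bound of the control share was 6.60%, and median depths were 14424 and 15883 UMIs. Without thinning, the EC shares were 65.3% and 86.6% for Slc2a1, 4.08% and 41.8% for Slc2a3, 12.9% and 72.5% for Slc16a3, and 5.44% and 39.2% for Hk2. Most mutant ECs with a Slc2a3 UMI also held one of Slc2a1: of the thinned cells, 180 held UMIs of both, 319 only of Slc2a1 and 10 only of Slc2a3. The tenth of thinned mutant ECs with the most Slc2a3 held 67.3% of its UMIs, against 37.6% for Slc2a1. Counting intervals of the levels and ratios do not cover this spread between cells. For hexokinases, 49 mutant ECs were positive for both, 117 for Hk1 alone and 69 for Hk2 alone. Hexokinases were detected in fewer cells than Slc2a1 and Slc2a3, so these counts do not compare the overlap of the families. At this depth a missing UMI does not show that a transcript was missing.

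At a finer resolution of 0.8, at which the borders of the classes shifted, 3 clusters were EC-like, and they were not uniform. Together they held 3553232 control and 15031052 mutant UMIs, against 3243207 and 13835223 in the ECs described above. The Bmx cluster held 5 Slc2a4 UMIs in control, where all those ECs held 1, so some of its cells lay outside them. How many is not given here. The clusters described at this resolution were chosen after the data were seen. In the largest, led by Fabp4, Aplnr and Emcn (108 control and 520 mutant cells), Slc2a1 was 150 CPM in control and 797 CPM in mutant, a log2 ratio of 2.41 (2.27 to 2.56). In the cluster led by Bmx, Gja4 and Eln (33 and 143 cells), in which smooth muscle or mural markers were also raised, it was 150 and 175 CPM, a ratio of 0.23 (-0.10 to 0.57). In the cluster led by Tll1, with Calcrl and Flt4 (21 and 90 cells), it was 67.3 CPM (18 UMIs) and 715 CPM, a ratio of 3.41 (2.74 to 4.17). The Slc2a1 levels of the 3 clusters thus did not overlap in the mutant library. Slc2a3 in these clusters was 168, 31.5 and 295 CPM in mutant, against 6, 1 and 1 UMIs in control, with ratios of 6.23 (5.11 to 7.68), 4.24 (1.73 to 9.56) and 6.30 (3.81 to 11.6). Slc16a3 was 16.6 CPM (10 UMIs) in control and 134 CPM in mutant cells of the Bmx cluster, a ratio of 3.01 (2.11 to 4.08). The Fabp4 cluster alone held 37 control UMIs of Slc16a3, and all ECs described above held 38. Hk2 in the Bmx cluster was 3.33 CPM (2 UMIs) in control and 35.2 CPM in mutant, a ratio of 3.40 (1.51 to 6.47). The Fabp4 cluster held 10 control UMIs of Hk2, and all ECs described above held 11. The control counts of both genes in the Bmx cluster can thus come from cells outside those ECs, which was not tested. Its ratios are not those of ECs alone.

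**Figure D4:**
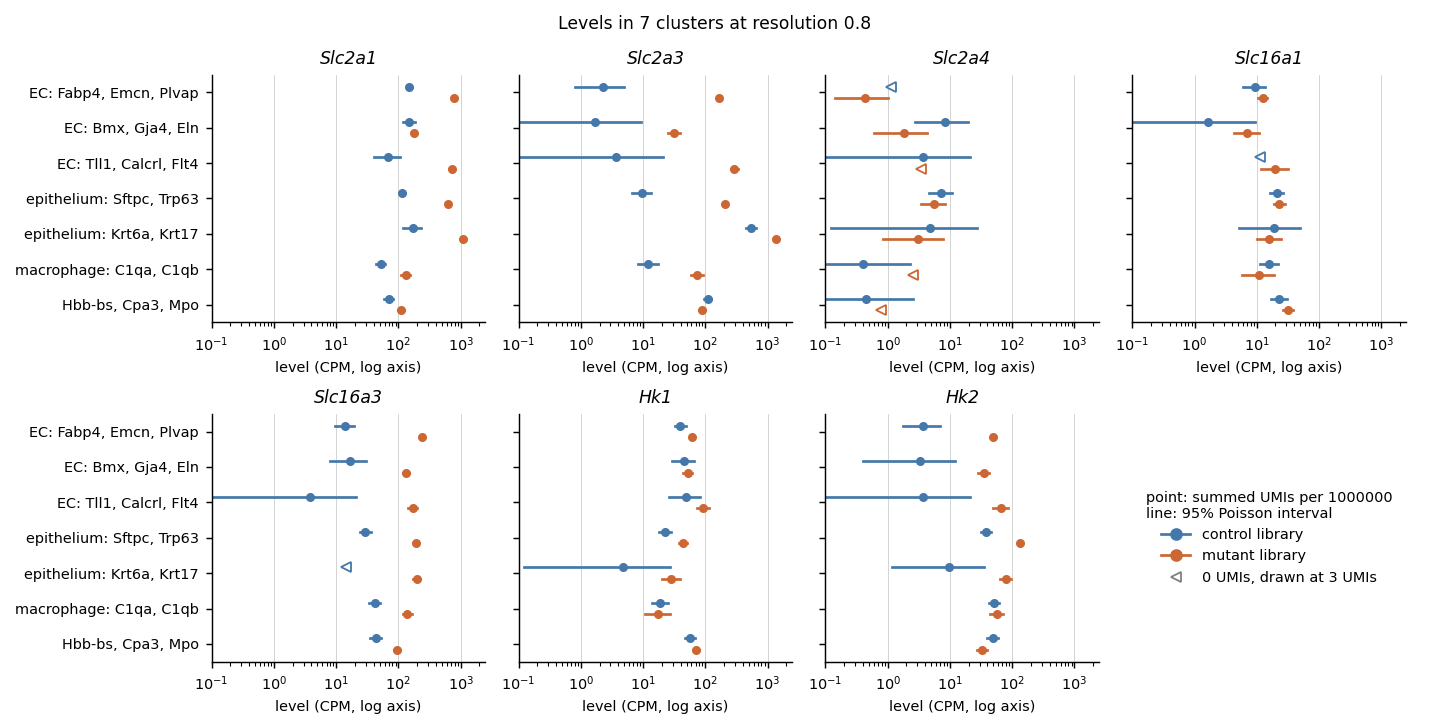
Level of each member (CPM, log axis) in 7 clusters at resolution 0.8, named by class and leading genes, with the control library in blue and the mutant library in orange; lines are 95% Poisson intervals and open triangles mark 0 UMIs. Slc2a1 differs between libraries in the Fabp4 and Tll1 EC clusters and overlaps in the Bmx cluster (150 and 175 CPM), and Slc2a3 is highest in the Krt6a cluster (1392 CPM in mutant).

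Other classes were also mixtures. Slc2a3 of epithelium-like cells came mainly from a cluster with Krt6a and Krt17 among its leading genes (10 control and 60 mutant cells), with 540 CPM in control and 1392 CPM in mutant, a log2 ratio of 1.37 (1.09 to 1.65). The larger epithelial cluster, led by Sftpc and Cga (167 and 229 cells), had 9.59 and 207 CPM, a ratio of 4.43 (3.92 to 4.99). The remaining epithelium-like cluster, led by Oc90 and Tectb (35 and 15 cells), had 7.12 CPM (4 UMIs) and 249 CPM, a ratio of 5.13 (3.70 to 7.05). The mutant library held more cells of the Krt6a cluster, and the class ratio of 3.77 sums over all of these clusters. The muscle and mesenchyme clusters that follow are those of the coarser resolution of 0.3. Among muscle cells, the differentiating cluster with Myh3, Mymk and Mylpf had 7 Slc2a3 UMIs in control and 240 in mutant, a ratio of 5.46 (4.39 to 6.79), and the cluster with Pax7 and Bmpr1b, the shallowest of the muscle clusters, had the highest mutant Hk2 of the 3, 207 CPM. Of the mesenchyme-like clusters, the larger, with Angptl1 and Twist1, had ratios of 2.50 for Slc2a1, 3.39 for Slc2a3 and 2.16 for Hk2, and the cluster with Adh1, Wnt2 and Tbx4 had 1.33, 1.45 and 0.53. Hk1 had ratios of 1.24 and 1.30 in these clusters, both below its ratio over the class. The larger held 585 control and 522 mutant cells, and the Adh1 cluster 368 and 135.

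Neuron-like cells split into 2 clusters at resolution 0.3. In the larger, Slc2a3 was 42.9 and 33.5 CPM, a ratio of -0.36 (-0.74 to 0.03), and in the cluster with Neurod1 and Ppp1r17 it was 8.82 and 22.1 CPM, a ratio of 1.32 (0.52 to 2.21). At resolution 0.8 the lower summed level was not seen within the clusters that make up the larger. The cluster with Igfbpl1 and Robo3 (100 control and 325 mutant cells) had 11.9 and 21.3 CPM, a ratio of 0.85 (0.13 to 1.64). The cluster with Dbh and Cartpt (27 and 11 cells), which had the most Slc2a3 and made up more of the control library, had 135 and 199 CPM, a ratio of 0.56 (0.06 to 1.06), and Slc2a3 held 61.9% and 69.1% of its glucose transporter UMIs, with overlapping intervals. The Neurod1 cluster at this resolution (50 and 123 cells) had a ratio of 1.74 (0.76 to 2.86), and the remaining neuron-like cluster had 6 and 2 UMIs. Slc2a1 had larger ratios in the Igfbpl1 and Neurod1 clusters, 1.93 (1.37 to 2.55) and 2.73 (2.17 to 3.34), with intervals that overlapped those of Slc2a3. The Slc2a3 share of these 2 clusters was thus lower in mutant as a point value. It rests on 19 and 10 control UMIs of Slc2a3, and counting error does not separate the libraries. At resolution 0.3 the share was lower in mutant in both neuron-like clusters, with 92 control UMIs of Slc2a3 in the larger and 16 in the Neurod1 cluster. The Slc2a1 ratio there was 1.00 (0.63 to 1.39) in the larger and 2.78 (2.25 to 3.36) in the Neurod1 cluster. At resolution 0.3 the interval of the Hk1 ratio held 0 in both neuron-like clusters, and the Slc16a3 ratio was 2.48 in the larger and 4.81 in the Neurod1 cluster.

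Clusters with blood cell genes were described for contrast. The cluster led by Hbb-bs, Cpa3 and Mpo (82 control and 135 mutant cells) had Slc2a3 at 109 CPM in control. Among the clusters described here, only the Krt6a epithelial cluster and the Dbh neuron-like cluster had more in control. With 89.5 CPM in mutant, the log2 ratio of this blood cell cluster was -0.29 (-0.53 to -0.04). Its Hk2 was 48.9 and 32.8 CPM, a ratio of -0.58 (-0.96 to -0.19). Its Slc16a3 was still higher in mutant, with a ratio of 1.13 (0.80 to 1.47). Macrophage-like cells with C1qa and C1qb (92 and 41 cells) had Slc2a3 at 12.2 and 74.0 CPM and Hk2 at 51.4 and 56.3 CPM, a ratio of 0.13 (-0.32 to 0.57).

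The sex calls gave a comparison within the mutant library, since female-like and male-like cells must come from different embryos of the pool. In ECs, Slc2a1 was 713 CPM in female-like and 747 CPM in male-like mutant cells and Slc16a3 219 and 221 CPM, log2 ratios of male-like over female-like cells of 0.07 (0.01 to 0.13) and 0.01 (-0.10 to 0.13). Slc2a3 and Hk2 differed: 85.1 and 212 CPM for Slc2a3, a ratio of 1.32 (1.16 to 1.48), and 30.0 and 57.2 CPM for Hk2, a ratio of 0.93 (0.66 to 1.21). In branchial muscle-like cells the male-like cells had 101 CPM of Slc2a3 against 24.2 CPM, a ratio of 2.06 (1.83 to 2.30), and 207 CPM of Slc2a1 against 109 CPM, a ratio of 0.92 (0.80 to 1.04). Epithelium-like cells differed most in Hk2, with 59.5 and 166 CPM. In cardiomyocyte-like cells, with 12 female-like and 83 male-like mutant cells, the direction was opposite for Slc2a1 (-0.91, -1.31 to -0.51) and Slc16a3 (-1.50, -1.99 to -0.99). The sex call missed most cells of this class: 20.4% of its control cells were female-like and 79.6% had no call. Its female-like mutant cells had 290 CPM of Slc2a1 and 211 CPM of Slc16a3, against 123 and 64.0 CPM over all its mutant cells. These 2 ratios may therefore compare unlike cells rather than embryos. Sex and embryo cannot be told apart here.

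With female-like cells alone in both libraries, Slc2a1 remained higher in mutant in all 7 classes, with log2 ratios from 1.27 in neuron-like cells to 2.25 in ECs and every interval above 0, and so did Slc16a3, from 0.99 in cardiomyocyte-like cells to 4.23 in ECs. Hk2 was 3.03 in ECs (2.14 to 4.06) but 0.12 in cardiomyocyte-like (-1.34 to 1.59) and 0.88 in mesothelium-like cells (-0.25 to 1.90). The cardiomyocyte-like values rest on 11 control and 12 mutant cells, since most control cells of that class had no sex call. Slc2a3 was 5.67 in ECs (4.43 to 7.30), 1.36 in branchial muscle-like cells, where all cells gave 2.90, and -0.50 in neuron-like cells (-0.94 to -0.06), which again sums over clusters of different proportions. For Slc16a1 the interval held 0 in 6 of 7 classes, and in epithelium-like cells the ratio was -0.77 (-1.52 to -0.07).

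**Figure D5:**
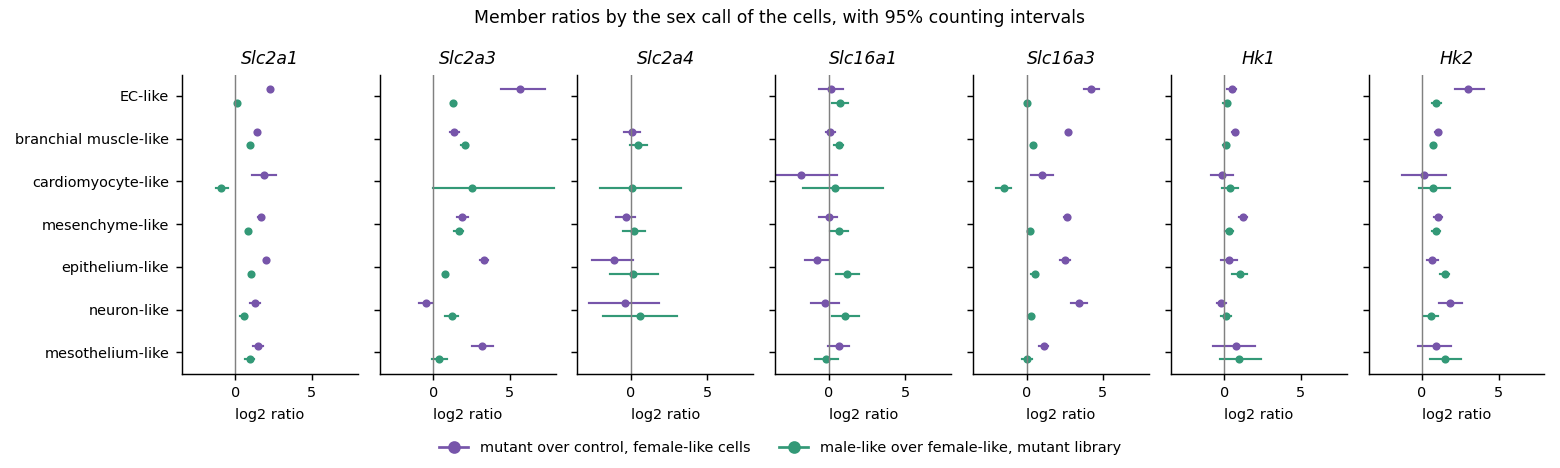
Log2 ratios of each member in 7 cell classes, with mutant over control among female-like cells in purple and male-like over female-like cells of the mutant library in green; lines are 95% counting intervals that stop at the axis limits, and missing points had too few UMIs. In ECs the green points of Slc2a1 and Slc16a3 lie near 0 (0.07 and 0.01), and those of Slc2a3 and Hk2 lie at 1.32 and 0.93.

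Genes that work with the members were followed in lists. None of the 5 other glucose transporters with enough UMIs in ECs was past 2-fold, their median log2 ratio was -0.51, and the most abundant, the inositol carrier Slc2a13, was 59.5 CPM in control and 32.4 CPM in mutant, a ratio of -0.88 (-1.12 to -0.63), whereas in mesothelium-like cells it was 30.8 and 131 CPM. Slc2a8, Slc2a10 and Slc2a12 stayed below 10 CPM in ECs. Of 11 other monocarboxylate carriers and chaperones, 2 were higher (Slc16a6 at 1.44 and Slc16a9 at 1.61, the latter with an interval that held 0) and 1 lower (Slc16a7 at -1.24). Among all genes counted in ECs, 9.06% were more than 2-fold higher in mutant and 6.15% lower. Bsg, the chaperone that MCT1 and MCT4 need at the surface, was abundant in ECs, 479 and 653 CPM, a ratio of 0.45 (0.37 to 0.52). Its relative Emb had a ratio of 0.98.

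Past the hexokinase step, the genes of glucose 6-phosphate use had a median log2 ratio of 0.43 in ECs, and Pgm1, which converts between glucose phosphates, was higher in mutant at 2.30 (1.94 to 2.69). Gpi1, the next enzyme of glycolysis, was 287 and 559 CPM, a ratio of 0.96, Ugp2 had a ratio of 0.76 and Pgm2 0.10. Of 15 genes of transporter traffic and turnover, the same count of 1 passed 2-fold in each direction: Tbc1d1, a Rab regulator in GLUT4 traffic, was higher at 1.12 and Txnip, an arrestin that promotes the removal of GLUT1 from the surface, lower at -1.28 (-1.45 to -1.11). With 9.06% of all genes higher and 6.15% lower in ECs, these counts do not set the list apart. Rab8a, Rab10, Rab14 and Lnpep lay between -0.12 and 0.09. Of 15 downstream glycolytic genes, 11 were higher in mutant ECs, with a median of 1.40, among them Aldoa (1.54), Gapdh (1.25), Pkm (1.19) and Ldha (1.56). The EC ratios of Slc2a3, Slc16a3 and Hk2 exceeded those of these 4 enzymes without overlap of the intervals. Of the other glycolytic genes, Eno2, picked out after its values were seen, had 1 UMI in control and 335 in mutant ECs, a ratio of 6.30 (3.81 to 11.6). Over the 7 classes, from 5 of 15 in neuron-like and mesothelium-like cells to 13 of 15 in mesenchyme-like cells were higher.

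Over the 14 sums of 7 classes in 2 libraries, which share their libraries and depth and are not independent, the genes most like each member in level were listed among 13247 genes by Pearson's r of log2(CPM + 1). For Slc2a1 they were Gtf2e2 (r = 0.93), Bhlhe40 and Slc16a6, for Slc2a3 Ddit4 (r = 0.91), Derl3 and Ero1l, and for Slc16a3 Ak4 (r = 0.90), P4ha2 and Rnaset2b. For Hk2 they were 1810024B03Rik (r = 0.91), Mif and Eno1, for Hk1 Mcts2 (r = 0.87), Pfkp and Zfp691, for Slc16a1 Thumpd2 (r = 0.88), Etfbkmt and Lyplal1, and for Slc2a4 Dkk3 (r = 0.90), Gins4 and Acp1. Among the members, Slc2a1, Slc2a3 and Slc16a3 had r between 0.72 and 0.78 to each other, and Hk2 had 0.73 to Slc2a3 and 0.75 to Slc16a3. Hk1 had r of 0.02 to Slc2a1, 0.15 to Hk2 and -0.50 to Slc16a1.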

How the data were processed

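Reads were aligned with Cell Ranger 7.1.0 to GRCm38 by the authors, who deposited UMI counts for 4505 control and 5357 mutant cells (66935720 and 73915525 UMIs, medians of 10181 and 9372 per cell) without normalization. Whether intronic reads were counted is not given in the sources used here. The members, marker genes and lists were chosen with earlier results of these data known.

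Filtered cells (median UMIs 20412 in control and 16839 in mutant) were integrated with Seurat 5.3.0 on 2000 variable genes, from which the members and the other list genes, 76 in all, were left out, and clustered with 30 components and 20 neighbours at resolution 0.3 into 15 clusters. A cluster was named where at least 3 markers of a class were raised and under 80% of another class's were; the cluster with both macrophage and hemoglobin genes stayed unnamed. Names are rebuilt, not the authors'. Of the filtered cells, 12 barcodes occurred in both libraries. Scrublet's threshold (scanpy 1.11.5) marked 0 control cells and 1 mutant cell, so doublets were kept, with high scores removed as an alternative.

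CPM have exact Poisson intervals, ratios conditional exact binomial intervals and shares Clopper-Pearson intervals. A member at 0 in 1 library entered at 3 UMIs. Sex calls needed UMIs of Xist without any of Eif2s3y, Kdm5d, Uty and Ddx3y (female-like), or the reverse (male-like). Named genes are all 7 members, the 4 most abundant genes of each of 5 lists, the 3 genes most like each member (at least 10 CPM in 1 sum), and genes behind counts of 5 or fewer, the last chosen after their values were seen; some genes are not reported here. The ratio intervals were tested on simulated data, with an outcome not reported here. They cover no spread between cells, embryos or libraries. Alternatives changed the classes, doublets, cell filters, scaling (TMM by edgeR 4.0.16, or the median ratio of genes), weighting, depth, sex, cell cycle and UMI minimum. The tools were R 4.3.3, matplotlib 3.10.9, scipy 1.17.1, Python 3.11.15, pandas 2.3.3 and numpy 2.4.6.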

Additional observations from a re-analysis of the deposited data

Results flagged for a closer look

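Slc16a1 was higher in mutant ECs, with a log2 ratio of 0.66, and lower in mutant cardiomyocyte-like cells, with a ratio of -1.17. With 1 library per genotype the difference between the classes was not tested, and the cardiomyocyte-like value rests on 15 control and 25 mutant UMIs. The EC ratio was 0.13 (-0.64 to 0.94) among female-like cells and 0.43 (-0.19 to 1.11) in the largest EC-like cluster at resolution 0.8.

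Barcodes outside the cell filter, 1722 in control and 1868 in mutant, were left out of the reported levels and ratios, although those with at least 1000 genes entered the alternative given for Slc2a3. Their summed counts also differed between the libraries. The log2 ratio was 2.74 for Slc2a1 (56.0 CPM in control and 375 CPM in mutant), 2.49 for Slc2a3, 2.34 for Slc16a3, 2.12 for Hk2 and 0.89 for Hk1, each with an interval above 0. For Slc16a1 it was 0.21 (-0.28 to 0.70), and Slc2a4 was lower at -1.61 (-2.70 to -0.62).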

How the results depend on the processing

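Of 629 ratios of a member in a class recomputed under up to 14 other settings and 1 chosen after seeing the data, 532 stayed within the counting interval of the reported value and 93 left it without a change of sign against an interval off 0. Of 38 ratios with an interval off 0, 34 kept their sign in every alternative. The other 4 were Slc2a3 (-0.14) and Slc16a1 (0.15) in cardiomyocyte-like cells thinned to 5000 UMIs, and Hk1 in cardiomyocyte-like cells (-0.15) and Slc16a1 in mesenchyme-like cells (-0.018) among female-like cells. The first is no change of sign: thinned control cells held 0 Slc2a3 UMIs, entered as 3, against 9 in mutant. The Slc16a1 value in thinned cardiomyocyte-like cells rests on 3 and 11 UMIs, and the Hk1 value on 11 control and 12 mutant cells. In ECs, 4 or 5 members were above 2-fold in every alternative and their median log2 ratio ranged from 2.14 to 3.25. The ratio of Slc2a3 in ECs ranged from 2.09 to 6.51 and was lowest with classes from marker counts, where its share of glucose transporter UMIs in control was 19.0%, above the 18.0% in mutant; with at least 1000 genes it was 14.1%, each time through 1 added barcode. Among female-like cells the mutant EC shares were 10.7% for Slc2a3, 96.3% for Slc16a3 and 33.7% for Hk2. Among cells in G1 the Slc16a3 share was 81.8% in control and 96.2% in mutant, and the Hk2 share 2.70% and 40.4%. Thinning gave 93.1% for Slc16a3 in mutant and 3.57% for Hk2 in control, and the mean over cells 93.8% for Slc16a3 in mutant; the causes of these shifts were not tested. TMM and median ratio scaling moved no member ratio out of its interval; the offset to class totals in ECs was -0.12 and -0.10, and over the classes it ran from -0.15 to 0.12. No paired analysis was possible because each genotype had 1 library, and for the same reason no replicate could be left out. Low counts limit Slc2a4 in ECs, neuron-like and mesothelium-like cells, each under 20 UMIs, and the control EC values of Slc2a3 and Hk2.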
